A study of Caligus rogercresseyi with 6 samples.

Results

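Caligus rogercresseyi is a sea louse, a parasitic copepod of salmon, and the 106 transcript contigs described here are those whose level summed over the stages lay mostly in adults, with a part in each sex. They were chosen from 44089 contigs by their CPM (a contig's counts per 1000000 counts of its library). A contig's share of a library was its CPM there over the sum of its CPM in 5 libraries. Members had a female share and a male share of 20% or more each, a female and male share together above 80%, and a summed CPM of 5 or more. The levels below were therefore used to choose the members, and they are given as a description with no test.

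RNA was taken from pooled whole wild type lice from farmed Atlantic salmon and sequenced as 1 library for each of 5 groups, namely egg, copepodid, chalimus, adult female and adult male. How many animals made up a pool, and how old the adults were, is not given in the labels. The shallowest library, copepodid, had 78380827 counts and the deepest, adult female, had 149426248. The 6th sample's file, whose label names adults of no stated sex, repeats the reads of both sexes in a joint count and was used here only to see how reads were assigned on recounting. With 1 library a group there was no replicate, so the intervals below cover counting error only and say nothing of the spread between pools. The files pair no contig with a gene name, so no marker of stage or tissue could be checked and no function is given for any contig.

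Sea lice hatch from egg strings carried by the female and pass through free-swimming larvae. The copepodid is the larva that finds the host. The chalimus is attached to the fish by a frontal filament and feeds on it. Adults of both sexes are mobile on the host and graze on mucus, skin and blood. Females produce egg strings and males seek mates.

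The members were few. Of 20975 contigs with a summed CPM of 5 or more, 704 had a female and male share together above 80%. In 417 of these the male share was below 20% and in 181 the female share was, which left 106, or 0.505% of the 20975. The 106 took 2.48% of female and 4.63% of male counts, against 1.04% in chalimus, 0.0214% in copepodid and 0.0164% in egg. The Wilson 95% interval of these shares was at most 0.00361 percentage points to either side. In pooled whole animals, fewer cells of a type and less RNA per cell cannot be told apart.

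A wide range of levels was covered. Adult female CPM ranged from 1.41 to 7399 with a median of 25.7, and adult male CPM from 2.68 to 11985 with a median of 31.9. In chalimus the range was 0.0344 to 2969 CPM, with a median of 9.59. In egg the median was 0.195 CPM, the highest 64.5 CPM. In copepodid the median was 0 CPM and the highest 69.1 CPM. Every one of the 106 stood below both adult libraries in each of the 3 earlier libraries, which the shares of 20% and 80% fix in advance.

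**Figure D1:**
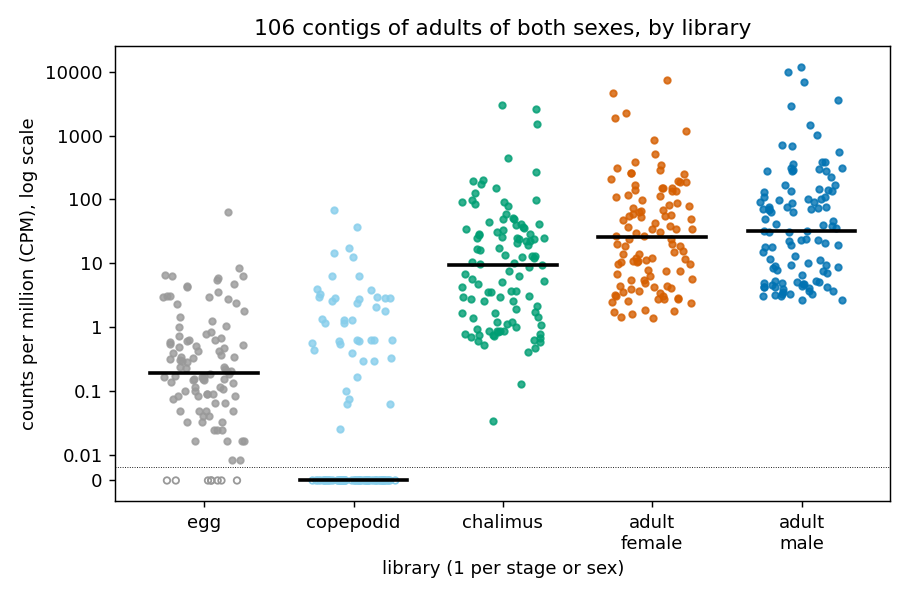
CPM of the 106 members (points) in each of the 5 libraries, on a log axis, with contigs at 0 counts drawn as open points below the dotted line and the median as a bar. The medians are 0.195 CPM in egg, 0 in copepodid, 9.59 in chalimus, 25.7 in females and 31.9 in males.

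A handful of contigs held most of the members' counts. The 5 with the highest summed adult CPM took 70.3% of the members' female counts and 75.8% of their male counts. The other 101 members together took 0.738% of the female library and 1.12% of the male library.

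Contig GAZX01006047 (635 nt) led both sexes per unit of length, with rank 1 among all contigs by FPKM (counts scaled to contig length and library total) in adult female, at 11644 FPKM, and in adult male, at 18867 FPKM. In chalimus it had rank 17. Its counts were 71 in egg, 0 in copepodid, 307741 in chalimus, 1105652 in females and 1560614 in males. On these counts chalimus stood above copepodid by far more than either adult stood above chalimus. That rests on the 0 in copepodid, a library whose listed counts lack 1.08% of the total behind its FPKM. Whether any of the missing counts belong to this contig was not tested. The female level was 2.80-fold that of chalimus (exact 95% interval 2.79 to 2.81) and the male level 4.53-fold (4.51 to 4.55).

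Contigs GAZX01013499 (1088 nt) and GAZX01027607 (1089 nt) came next and differed in length by 1 nt. GAZX01013499 had 0.116 CPM in egg, 37.2 CPM in copepodid, 2969 CPM in chalimi, 4698 CPM in females and 9808 CPM in males. GAZX01027607 had 2.29 CPM in egg, 69.1 CPM in copepodid, 1528 CPM in chalimi, 2283 CPM in females and 6861 CPM in males. Both were higher at each later stage and higher in male than in female, and they held the highest copepodid levels of all members. Their female levels were 1.58-fold and 1.49-fold those of chalimus, and their male levels 3.30-fold and 4.49-fold.

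GAZX01026000 (1017 nt) and GAZX01022265 (1130 nt) had no counts in copepodid. GAZX01026000 stood at 442 CPM in chalimi, 1893 CPM in females and 2892 CPM in males, with 22 counts in egg. GAZX01022265 stood at 205 CPM in chalimi, 1164 CPM in females and 3551 CPM in males, with 5 counts in egg. Chalimus held 4.16% of the summed CPM of GAZX01022265 and 8.45% of that of GAZX01026000. In GAZX01022265 the female level was 5.69-fold that of chalimus (5.61 to 5.77) and the male level 17.4-fold (17.1 to 17.6).

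The next 5 by summed adult CPM kept the same order of libraries from chalimus on. GAZX01030461 (1224 nt) reached 854 CPM in females and 1465 CPM in males. It was the member with the most RNA in egg, 64.5 CPM, above its 12.6 CPM in copepodid and below its 195 CPM in chalimus. GAZX01017921 (808 nt) had 347 CPM in females and 1030.2 CPM in males, against 267 CPM in chalimus. GAZX01016464 (1043 nt) had 188 CPM in females and 545 CPM in males, against 128 CPM in chalimus. The female level of these contigs was 1.30-fold and 1.47-fold that of chalimus, and the male level 3.86-fold and 4.25-fold. GAZX01022253 (481 nt) had 515 CPM in females and 711 CPM in males, against 177 CPM in chalimus, 0 counts in copepodid and 2 in egg. GAZX01032623 (1184 nt) had 292 CPM in females and 684 CPM in males, against 90.4 CPM in chalimus.

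**Figure D2:**
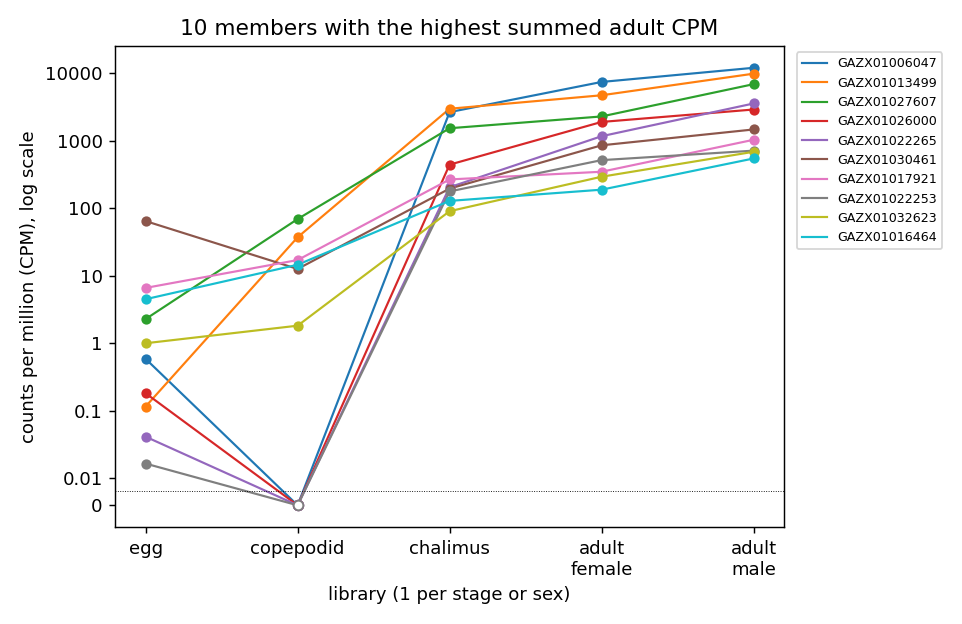
CPM (log axis) in the 5 libraries for the 10 members with the highest summed adult CPM, 1 line a contig, with 0 counts as open points below the dotted line. All 10 are highest in adult male, and 4 have 0 counts in copepodid.

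The remainder outside the adults lay in chalimus. Chalimus was the highest of the 3 earlier libraries for 104 of 106 members (98.1%), where it was for 33.8% of the 20975 contigs with a summed CPM of 5 or more. It was also the highest for 90.6% of the 350 contigs with over 80% of their CPM in adult female and for 95.9% of the 121 with over 80% in adult male, so this order is not particular to the members. The chalimus share had a median of 12.2% and a range of 0.215 to 19.8%, and 85 of the members had 1 CPM or more there. None had 0 counts in chalimus, and neither did any of those 350 and 121 contigs, where 9.28% of the 20975 did. At the median, the adult female level was 3.09-fold that of chalimus and the adult male level 3.94-fold.

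By a size rule of 4-fold with at least 50 counts in the higher library, 40 of 106 members were higher in adult female than in chalimus, where the same rule called 8.89% of all 22402 contigs tested. In adult male against chalimus it was 52 of 106, where it called 2.79% of 22033 contigs. The choice of members used these contrasts, which share the chalimus library, so nothing is read from the excess. With TMM factors 41 of the same members were 4-fold above chalimus in female and 62 in male. With DESeq2 size factors 43 were in female and 79 in male. Scaling shifts the ratio of every contig alike, and no matching share of all contigs is given for these 2 scalings. By CPM, both sexes were 4-fold above chalimus in 29 members, only the female in 11, only the male in 23 and neither in 43. The same split over all contigs is not given, so nothing is read from it either.

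The chalimus itself stood above the earlier stages for most members. Of 103 with at least 50 counts in chalimus or copepodid, 97 were 4-fold or more above copepodid in chalimus, where the rule called 29.2% of 29177 contigs. Of 104 with at least 50 counts in chalimus or egg, 86 were 4-fold or more above egg in chalimus, where it called 15.1% of 23441 contigs. The limit of 20% on the earlier shares weighs on these contrasts too.

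A set of 8 members, picked after the values were seen, had a chalimus share under 5%. The extreme was GAZX01031953 (2271 nt), with 39 counts in egg, 6 in copepodid, 4 in chalimus, 1034 in females and 1125 in males. It was 1 of only 2 members whose highest earlier library was egg, and its 4 chalimus counts leave its adult female over chalimus ratio between 78.4-fold and 739.9-fold. Its adult count changed by -89 (-4.12%) when both sexes were counted together, so read assignment adds to the uncertainty of the ratio. No such recount was available for its 4 chalimus counts. GAZX01024610 was the other, with 87 counts in egg, 13 in copepodid, 48 in chalimus, 661 in females and 430 in males. GAZX01014445 (864 nt) had 15 counts in chalimus, 280 in females and 634 in males, with 10 in egg and 0 in copepodid. GAZX01018694 (1224 nt) was the most abundant of the 8 that was higher in female, at 311 CPM in females and 109 CPM in males, against 10.3 CPM in chalimus. Its female level was 30.3-fold that of chalimus (28.6 to 32.2).

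Egg and copepodid were low in most members but seldom both empty. No member had 0 counts in all 3 earlier libraries, and 8 had 0 in both egg and copepodid. Egg held 10 or more counts of 77 members, 1 to 9 counts of 21 and 0 of 8. Zeros in egg were thus at 7.55% of members, where they were at 10.2% of all contigs with a summed CPM of 5 or more, 2.29% of those concentrated in adult female and 31.4% of those concentrated in adult male. GAZX01026123 (4124 nt) followed GAZX01030461 in egg level, at 8.41 CPM in egg, 2.58 CPM in copepodid and 24.7 CPM in chalimus, with 77.8 CPM in females and 76.0 CPM in males.

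Copepodid was more sharply divided. There 62 members had 0 counts, 5 had 1 to 9 and 39 had 10 or more, and 35 of the 62 had 10 or more counts in egg. By counting error alone, a count of 0 in copepodid allows up to 0.0383 CPM. The copepodid FPKM were scaled by a total of which its table lacks 1.08%, against at most 0.149% in the other 4 libraries, so a 0 there holds only if none of those counts belong to the contig. Their part in these zeros was not tested. The members with 0 in copepodid were lower in chalimus as well, at a median of 3.07 CPM, whereas the 44 with copepodid counts had 17.7 CPM. Zeros in copepodid were at 58.5% of the 106 members, 38.9% of the 350 contigs concentrated in adult female and 71.1% of the 121 concentrated in adult male. They were at 21.4% of the 737 contigs with 20% or more in each of chalimus, adult female and adult male and over 80% in the 3 together. They were at 9.20% of all contigs with a summed CPM of 5 or more. These sets were chosen on the same counts, and no test of the differences was possible.

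Levels were higher in adult male than in adult female for most members. Of the 106, 25 had the higher level in female and 81 (76.4%) in male, and the exact 95% counting interval of the ratio lay above 1 for 23 and below 1 for 75. The median log2 ratio of female to male CPM was -0.57. Over the 18732 contigs with a summed CPM of 5 or more and counts in both sexes, the median was 0.25 and 45.6% were higher in male. Among the 2370 contigs with a share of 20% or more in each sex, whatever their earlier levels, the median was -0.06 and 54.7% were higher in male. In the 737 contigs shared by chalimus and both adults, described above, the median was -0.46, so a male lean is not particular to the members. Scaling shifts every contig alike: with TMM factors the log2 ratio moved by -0.15 and with DESeq2 size factors by -0.32, after which 85 and 86 of the same 106 were higher in male. The members' median stayed 0.82 (log2) below that of all contigs under each, since the shift cancels.

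The male lean was found in abundant and scarce members. All 10 members with the highest summed adult CPM were higher in male, with a median log2 ratio of -1.14, and so were 71 of the other 96, with a median of -0.43. By a size rule of 2-fold with at least 50 counts, 9 members (8.49%) were higher in female, where 35.1% of 21543 contigs were. The same rule put 28 members (26.4%) higher in male, where it put 29.4% of all contigs. The requirement of 20% in each sex holds members within 4-fold, so these counts are a description. With TMM factors 8 of the same members were 2-fold higher in female and 37 in male, and with DESeq2 size factors 6 and 43. Both scalings move all contigs toward male, and no matching share of all contigs is given for them, so no excess is read from these counts.

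**Figure D3:**
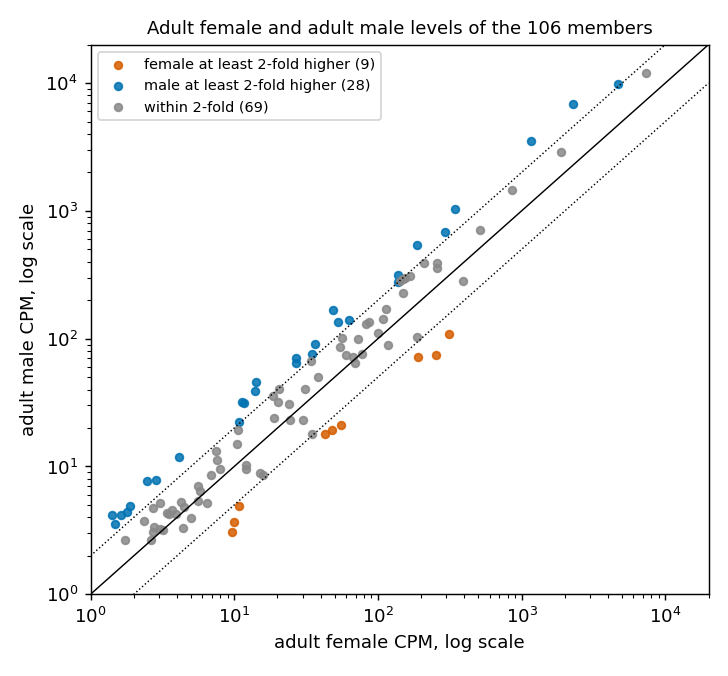
Adult female CPM (x, log axis) against adult male CPM (y, log axis) of the 106 members, with equal levels as a solid line and 2-fold differences as dotted lines. Of the points, 9 lie 2-fold or more to the female side and 28 to the male side, and the most abundant lie above the line of equality.

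The members that leaned most to the female were GAZX01023898, GAZX01020830, GAZX01018694, GAZX01025299 and GAZX01018497. GAZX01023898 (533 nt) had 38011 counts in females and 9703 in males, a female level 3.41-fold that of the male (3.34 to 3.49), with 2557 counts in chalimus, 0 in copepodid and 10 in egg. GAZX01018497 (664 nt) had 191 CPM in females and 71.5 CPM in males, against 36.9 CPM in chalimus, and no counts in egg or copepodid. GAZX01020830 (1430 nt) and GAZX01025299 (1247 nt) were scarce, at 9.597 and 9.94 CPM in adult female and 3.07 and 3.70 CPM in adult male. All 5 had 0 counts in copepodid.

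Toward the male the extremes were GAZX01018615, GAZX01036105, GAZX01025654, GAZX01022265 and GAZX01027607. GAZX01018615 (1199 nt) had 7303 counts in females and 21643 in males, a female level 0.294 of the male (0.286 to 0.302), with 2006 counts in chalimus, 0 in copepodid and 1 in egg. GAZX01036105 (2250 nt) had 14.2 CPM in females and 46.0 CPM in males, against 5.36 CPM in chalimus. GAZX01025654 (1939 nt) had 371 counts in females and 1003 in males, against 143 in chalimus, 5 in copepodid and 8 in egg. Its adult count changed by -9.68% on joint counting of the sexes. The most male-leaning members thus spanned very abundant and scarce contigs.

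The 25 members higher in female and the 81 higher in male had like chalimus shares, 12.3% and 12.1% at the median, and like lengths, 1247 and 1224 nt. Their egg share stood at a median of 1.83% in the 25 and 0.397% in the 81. The 25 took 0.194% of female and 0.106% of male counts, whereas the 81 took 2.29% of female and 4.52% of male counts.

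Contig length, which the rule did not use, was recovered from the counts and the FPKM. Members had a median of 1234 nt and ranged from 320 to 6666 nt, and the 20975 contigs with a summed CPM of 5 or more had a median of 1461 nt. Members were fewer at both ends of the range. Of the 106, 4.72% were under 500 nt and 20.8% were 2000 nt or more, where 9.72% and 33.4% of the 20975 were. Contigs with over 80% in adult female had a median of 1547 nt and those with over 80% in adult male 1030 nt. Contigs are not replicates, and no test was made of these differences.

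**Figure D4:**
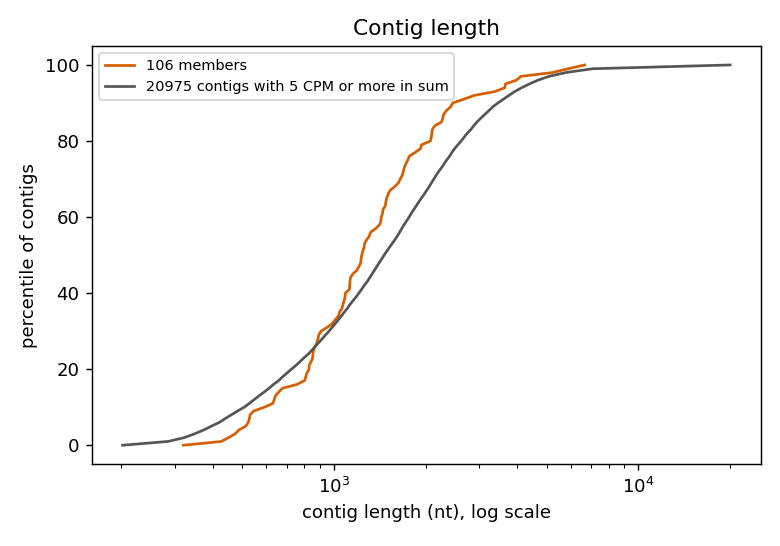
Percentile of contigs (y) against contig length in nt (x, log axis) for the 106 members and the 20975 contigs with a summed CPM of 5 or more. The members' median of 1234 nt lies below the 1461 nt of the others, and their curve is the steeper.

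Many members had consecutive identifiers. Of the 106, 26 (24.5%) had a member as the previous or next identifier, in 10 runs of 2 to 5, where 0.570% of the 20869 other contigs with a summed CPM of 5 or more lay next to a member. No sequence was used here, so whether such neighbours are pieces or variants of 1 transcript is not known. They cannot be taken as independent of each other, and the levels of each alone are uncertain where reads could be split among them.

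The longest run was GAZX01041257 to GAZX01041261, followed by GAZX01041263 and GAZX01041264 and preceded by GAZX01041252. All were scarce and nearly equal in the sexes. GAZX01041258 (1141 nt), the highest of them, had 4.45 CPM in females and 4.78 CPM in males, against 0.868 CPM in chalimus and 0 counts in copepodid. Of the 16 consecutive identifiers from GAZX01041250 to GAZX01041265, 13 passed the thresholds on shares, and 5 of those 13 missed membership only because their summed CPM was under 5. The 13 had female shares of 36.7 to 43.9%, male shares of 43.6 to 56.001% and no copepodid count among them.

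The run GAZX01033141 to GAZX01033144 was far more abundant and nearly uniform. These 4 contigs measured 2074 to 2116 nt. In adult female they had 138, 150, 153 and 142 CPM and in adult male 277, 293, 296 and 281 CPM, against 29.2, 35.3, 33.9 and 28.7 CPM in chalimus. The preceding identifiers, GAZX01033139 (1731 nt) and GAZX01033140 (1706 nt), had 61.6 and 72.6 CPM in adult female but only 26 and 18 counts in adult male. Summed over all 6 identifiers, the female level was 0.625 of the male level, and over the 4 members it was 0.508. The 6 together would still meet the rule, with 92.4% of their summed CPM in the adults.

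The identifiers GAZX01034901 to GAZX01034906 were less uniform. GAZX01034902 (1124 nt) had 72.5 CPM in females and 99.8 CPM in males, and GAZX01034903 (1126 nt) had 187 CPM in females and 103 CPM in males. GAZX01034906 (623 nt) had 47.6 CPM in females and 19.2 CPM in males. Between these 3 members lay GAZX01034904, at 171 CPM in females and 38.4 CPM in males, and GAZX01034905 (621 nt), whose female level of 1.41 CPM stood against 690 CPM in males. The direction turned with the unit of counting. The 3 members summed to a female level 1.38-fold that of the male, and all 6 identifiers to a female level 0.758 of the male.

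**Figure D5:**
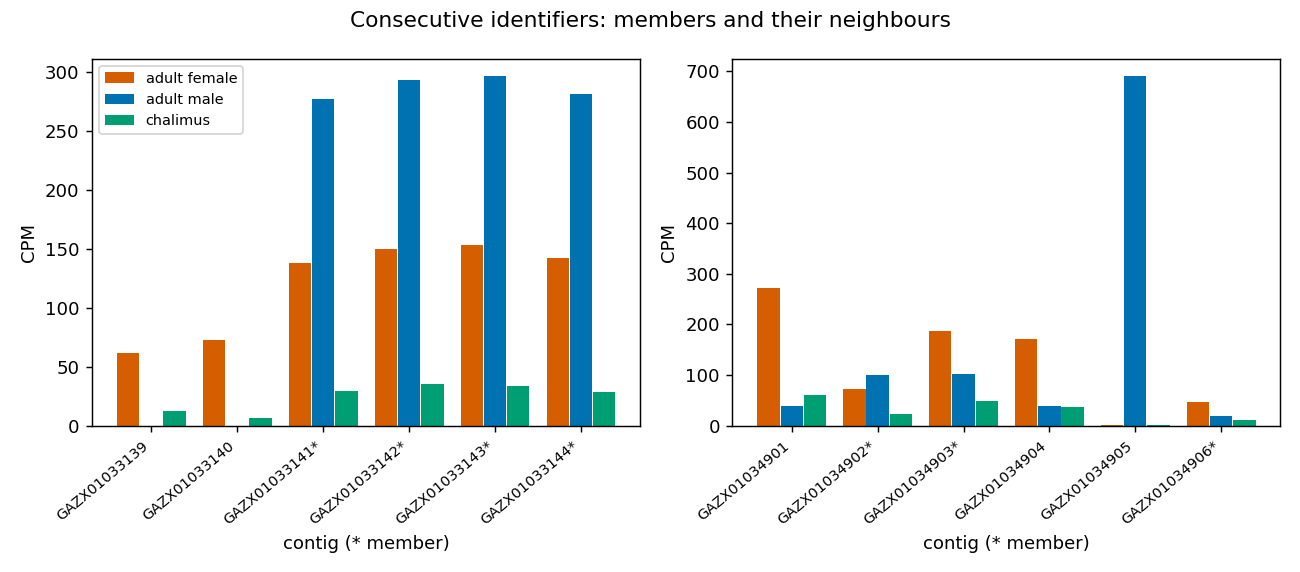
CPM in adult female, adult male and chalimus (bars) of 6 consecutive identifiers from GAZX01033139 and 6 from GAZX01034901, with members marked by an asterisk. The 4 members of the first set stand alike beside neighbours with almost no male level, while GAZX01034905 in the second set has a female level of 1.41 CPM against a male level of 690 CPM.

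Counting both sexes together gave other counts for some members. Of the 106 members, 56 had exactly the sum of their female and male counts in the adult file, 22 differed from it by at most 1% and 28 (26.4%) by more, where 32.5% of the 20975 contigs differed by more. Of the 28, 14 gained and 14 lost, and 14 had a member as neighbour. Over GAZX01034901 to GAZX01034906 the single changes ran from -911 to 1754 counts and summed to 0. Over GAZX01033139 to GAZX01033144, too, they summed to 0, and GAZX01022252 gained the 422 counts that GAZX01022253 lost. GAZX01015128 gained the 21 counts that GAZX01015129 lost.

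The largest relative changes were in GAZX01036105, which gained 24.0% (1942 counts), and GAZX01039461 (5908 nt), which gained 20.8% (1487 counts). GAZX01039461 had 14.0 CPM in females and 38.8 CPM in males, against 9.89 CPM in chalimus. The gain of GAZX01036105 stood beside changes of -1270 counts in GAZX01036106 and -629 counts in GAZX01036107, neither a member, with male shares of 71.7% and 76.8%. The 5 most abundant members changed by 0 counts.

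The edge of the set was not a gap for most thresholds. The lowest female share inside was 20.8%, in GAZX01017921, and the highest among contigs outside on that threshold alone was 19.6%, in GAZX01030077. For the male share these were 21.2% in GAZX01023898 and 15.5% in GAZX01034904. For the female and male share together they were 80.002% in GAZX01040901 and 79.98% in GAZX01037619, and for the summed CPM 5.49 in GAZX01015186 and 4.78 in GAZX01015758. The 737 contigs shared by chalimus and both adults took 7.12% of the female, 10.7% of the male and 6.55% of the chalimus counts.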

How the data were processed

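Each of 6 files lists 44089 contigs with whole-number counts, not normalised, and FPKM, scaled to length and depth and rounded to 3 decimals, both as deposited by the authors. The aligner, counting tool and assembly were not given in the sources used here. How reads matching several contigs were divided is not given either, so intervals are approximate. Libraries followed standard Illumina procedures, per the labels' protocols.

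Counts were divided by file totals to give CPM. Ratios of 2 libraries carry exact (Clopper-Pearson) 95% intervals, and a count of 0 was taken to allow 3 counts. Lengths came from counts over FPKM. Where FPKM was above 300 (279 to 454 contigs a file) 100% were whole within 0.05 nt, as were 82 of the 106 members, and the rest were rounded. TMM factors (edgeR 4.0.16), DESeq2 1.42.0 size factors and other thresholds were alternatives. With 1 library a group no test was made, and no list of genes by name could be applied. On simulated counts for 44089 contigs the rule recovered 100% of contigs made inside it and 0% made outside. Those contigs were made well away from every threshold, so this checks the code only and says nothing of contigs near an edge. Of the simulated female to male intervals, 95.3% held the true ratio.

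Named contigs were the 10 highest in summed adult CPM, the 5 highest in mean adult FPKM (the first 5 of those 10), the 5 at each end of the sex ratio, the 2 highest in each earlier library, the longest run of identifiers, the 5 highest with no earlier counts (there were none), the 2 largest recount changes and those beside each threshold. Others were named after their values were seen. The members, rules and alternatives were chosen with earlier results of these data known.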

Additional observations from a re-analysis of the deposited data

How the results depend on the processing

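No paired analysis was possible because each group has 1 library and no test was made. Every alternative left the median log2 ratio of female to male below 0, and no alternative gave a member with 0 counts in all 3 earlier libraries. Requiring above 90% for the sexes together left 23 members, 22 of them with chalimus highest before adulthood, holding 0.482% of female and 0.917% of male counts, with a median log2 ratio of -0.97. Requiring 30% in each sex left 61 members, 59 with chalimus highest, 1.39% and 2.12%, and a median of -0.33. TMM scaling gave 117 members, 99 of them shared, holding 3.59% of female and 6.26% of male counts. DESeq2 scaling gave 145, 94 of them shared, holding 3.95% and 6.72%, with a median of -0.85. The shares of female and male counts were 2.47% and 4.61% without the contigs counted in copepodid alone (103 members), 2.49% and 4.63% with a summed CPM of 1 or more (148), 2.47% and 4.61% with 20 or more (73), 2.54% and 4.73% without the copepodid library (134) and 2.42% and 4.58% with a recount change of at most 1% (78). Each of these settings changed the list of members while the counts stayed the same, so counting error is no measure of these moves. FPKM in place of CPM gave 106 shared members.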

Other observations

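Some of the most abundant contigs of the adults lay just outside the set. GAZX01024538 (590 nt) had 6705 CPM in females and 11004 CPM in males, against 4653 CPM in chalimus, so that the sexes held 79.2% of its summed CPM. GAZX01028289 (910 nt) had 5450 CPM in females and 10966 CPM in males, against 4159 CPM in chalimus, and the sexes held 79.8%. Both entered the set with TMM or DESeq2 scaling, and the 18 contigs that TMM added held 1.39% of female and 2.50% of male counts. GAZX01024539, the identifier after the first of them, entered with TMM scaling but not with DESeq2 scaling, at 341 CPM in females and 861 CPM in males, against 324 CPM in chalimus. TMM scaling took 7 members out of the set and DESeq2 scaling 12. Those that left with either scaling were GAZX01027607, GAZX01017921, GAZX01016464, GAZX01018615, GAZX01036105 and GAZX01019000, whose female shares were near 20%.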
